A study of Mus musculus with 12 samples.

Results

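The developing hypothalamus is divided into nuclei by transcription factors, and several of these factors stay on in the adult neurons or glia of 1 region, so that their transcripts mark which nuclei a piece of tissue holds. The genes described here across alcohol and water mice were 9 of these factors, Sim1, Otp, Nr5a1, Rax, Six3, Six6, Lhx1, Lhx6 and Foxb1. They were chosen by name, and were represented by 14 of the 41174 non-control probes of the array. A gene with several probes was described by the one with the highest mean intensity, and its other probes were described beside it.

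As background, SIM1 and OTP specify the neuroendocrine neurons of the paraventricular and supraoptic nuclei, which release oxytocin, vasopressin and other hormones. NR5A1 (steroidogenic factor) defines neurons of the ventromedial nucleus, a region known for energy balance and social behavior. RAX marks the eye and hypothalamic primordium and, in the adult, the tanycytes, the glia that line the floor of the third ventricle. SIX3, SIX6 and LHX1 act in the anterior hypothalamus, where SIX6 and LHX1 are known for the suprachiasmatic nucleus, the circadian pacemaker. LHX6 is a factor of GABA neurons, both of the hypothalamic region near the zona incerta and of the cortex and basal forebrain, and FOXB1 marks the mammillary body.

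Gene expression had been measured with Agilent whole-genome 1-color arrays in hypothalamus from male mice of the outbred ICR strain, in samples that by the study held much of that structure. The mice were 3 weeks old at the start, had 2 water tubes up to day 5, and then either water alone or a choice between water and a 5% or 10% alcohol solution until they were sacrificed, on day 51 by the sample labels and day 57 by the series design. RNA of 9 water mice made 3 pools and RNA of 19 alcohol mice made 9 pools of 1 to 3 mice, and by the labels 3 alcohol pools each were of low drinkers, of early high drinkers and of late high drinkers. The labels did not tie a pool to 1 of the alcohol concentrations, and p-values measured the spread between pools and not between mice. In such bulk tissue, fewer cells of a type and less RNA per cell cannot be told apart.

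There were 3 slides with 4 arrays each. All 3 water pools shared slide 1 with low pool 1, low pools 2 and 3 shared slide 2 with early high pools 1 and 2, and the 3 late high pools shared slide 3 with early high pool 3. Slide 1 was scanned on another day than slides 2 and 3. Water was therefore compared with alcohol within a slide only through low pool 1. On each array 67.0 to 79.3% of the spots were well above background, and the signal at the 75th percentile was 1512 to 1853. The lowest scaled signal still called well above background was -4.89 and -4.86 (log2) in low pools 2 and 3 and -5.09 in early high pool 1, all on slide 2, and lay between -6.52 and -5.70 on the other 9 arrays.

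The tissue was checked against a list of 18 hypothalamic peptides. Of these, 16 had a probe, and all 16 probes were well above background on all 12 arrays. Probes for genes of neighboring regions were also well above background on all 12 arrays, for 9 of 9 thalamic genes, 5 of 7 genes of cortex and hippocampus, 5 of 6 of striatum, 4 of 5 of midbrain and 4 of 5 of choroid plexus. Only 3 of the 6 anterior pituitary genes with a probe were so on all arrays.

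Some probe sequences are shown first, as the molecules the values below were measured with. The Six3 probe and the Lhx1 probe are printed whole, 5′ to 3′, because they are the brightest probes of these genes, and the Lhx1 probe was spotted 10 times on each array. The Six3 probe lies at chr17:86021014-86021073 (mm9, plus strand) and reads through without a stop in 2 of its 3 frames. The Lhx1 probe lies at chr11:84333091-84333150 (mm9, minus strand) and reads through in all 3 frames.
Six3 probe: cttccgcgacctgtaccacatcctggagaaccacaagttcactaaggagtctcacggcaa
Lhx1 probe: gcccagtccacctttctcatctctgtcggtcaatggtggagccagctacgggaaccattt

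The first 30 bases of the Otp probe are shown for another reason, since this was the only member with no signal. The 60 bases of the probe (chr13:95645582-95645640 in mm9 by the files, plus strand) matched the RefSeq promoter window of Otp (GRCm38.p6) at 58 bases. The match ran to 50 bases past the annotated start of transcription, and its first bases lay before that start, so the probe was partly outside the annotated transcript. The differing bases, in capitals, were T1C and G7A, with the base of the probe first, its position counted from the 5′ end of the probe, and the base of the genome last.
Otp probe: TtttttGaccacaaaccgaattttctttca
Otp genome: CtttttAaccacaaaccgaattttctttca

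Each value below is a log2 intensity scaled so that the 75th percentile of its array is at 0, and the level of 1 probe is not compared with that of another. Alcohol was compared with water by limma over all 12 arrays (9 against 3), and the 4 groups were compared in 1 limma fit. The Otp probe was not well above background on any of the 12 arrays and none of its spots passed the signal filter, so Otp has no level here and was not tested. With the signal filter left out it entered the fits, never passed after adjustment, and had an unadjusted p under 0.05 in high against low drinkers, where all its values are background and no difference is given. The other 8 members were tested in every comparison.

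Between alcohol and water no member passed an adjusted p of 0.05, where the share of all 32376 probes tested was 0% (limma), and none did by the methods' t-test after adjustment. At an unadjusted p under 0.05 the members were 2 of 8 by both tests, Rax and Six6, beside 5.53% of all probes by limma and 5.21% by the methods' t-test. Both were on the higher side in alcohol pools (3.85% of probes), and no member was on the lower side (1.68% of probes). The median log2 difference of the 8 members was 0.08, beside 0.03 over all probes. The log2 difference was above 0 for 6 members and below 0 for 2. No member had alcohol values that all lay above, or all below, those of water, beside 0.982% and 0.325% of the probes measured on all arrays.

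**Figure D1:**
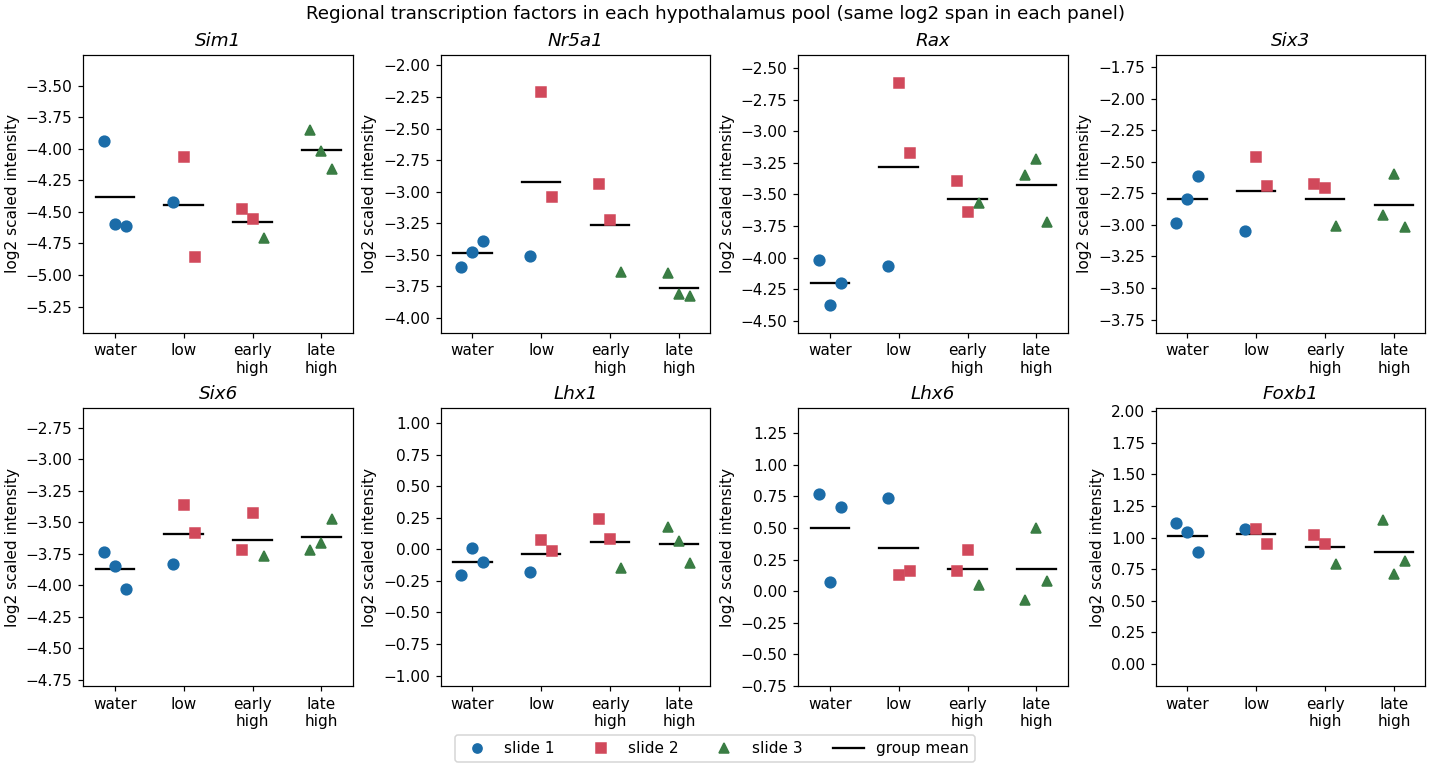
Log2 scaled intensity (vertical axis) of the 8 measured transcription factors in the 3 pools of each group (horizontal axis), with symbols for the slide and a bar for the group mean; every panel spans the same log2 range. Low pool 1, the one alcohol pool on slide 1, lies with the water pools for Rax at -4.06, while Nr5a1 is highest in low pool 2 at -2.21 and Sim1 is higher in the 3 late high pools than in the 3 early high pools.

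Sim1 (chromosome 10, 50708865 to 50708924, mm9), the factor of the paraventricular and supraoptic nuclei, was at -3.94, -4.59 and -4.61 in the 3 water pools. It was at -4.42, -4.06 and -4.86 in the low pools and at -4.48, -4.56 and -4.70 in the early high pools. The late high pools had -3.85, -4.02 and -4.16. All 3 late high pools were above all 3 early high pools, while the water and low pools spanned most of the range of both. In low pool 3 alone the Sim1 signal was not well above background.

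Alcohol and water did not differ detectably for Sim1, at 0.03 ± 0.22 (log2 difference ± SE, adjusted p = 0.981, limma). Ordered by mean, the groups ran from late high (-4.01 ± 0.15, SD, n = 3) through water (-4.38 ± 0.38) and low (-4.45 ± 0.40) to early high (-4.58 ± 0.11), and no pair of neighbors in that order differed beyond the spread. Late high against early high drinkers gave 0.57 ± 0.22 (unadjusted p = 0.0282, adjusted p = 0.359, limma). On slide 3 alone, the late high pools were 0.69 above the early high pool. The unadjusted call was lost with the slide as a fixed block (0.69, unadjusted p = 0.0761, limma) and with normexp background correction in place of the scanner's own (0.22, unadjusted p = 0.17). It was lost too on leaving out early high pool 2 or 3 or late high pool 1 or 2 (4 of 12 arrays, unadjusted p up to 0.0866, limma).

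Between late and early high drinkers, 0% of the 31622 probes tested passed an adjusted p of 0.05, and no member did. At an unadjusted p under 0.05 it was 12.4% of the probes, 4.37% higher and 8.04% lower in late high drinkers, and Sim1, higher, was the 1 member of 8. Values that all lay above those of early high drinkers were found for 8.24% of probes and for Sim1, and values that all lay below for 13.3% of probes and for Nr5a1. The exact permutation test of 3 against 3 pools gave p = 0.1 for both (two-sided), the smallest it can give.

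Other genes of the same nuclei were Arnt2, the dimer partner of SIM1, with Pou3f2 and Sim2. All 3 were tested, and 0 of 3 passed in alcohol against water, adjusted or not. Their median log2 difference was 0.12.

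Nr5a1 (chromosome 2, 38549021 to 38549080, mm9), the factor of the ventromedial nucleus, was at -3.59, -3.48 and -3.39 in the water pools and at -3.51, -2.21 and -3.04 in the low pools. The early high pools had -2.94, -3.22 and -3.64, and the late high pools -3.65, -3.81 and -3.82. The 4 highest values were those of the 4 arrays of slide 2, and low pool 2 stood highest. The late high pools were all below the water pools and the early high pools.

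Alcohol and water differed by 0.17 ± 0.29 for Nr5a1 (adjusted p = 0.91, limma), and the exact permutation test over pools gave p = 0.632. In order, the means were -2.92 ± 0.66 in low, -3.27 ± 0.35 in early high, -3.49 ± 0.10 in water and -3.76 ± 0.10 in late high drinkers. Low and early high, and early high and water, overlapped, while water and late high did not (p = 0.1 in the exact permutation test, the smallest it can give). The high drinkers (early and late, 6 pools) were lower than the low drinkers by -0.59 ± 0.25 (unadjusted p = 0.0384, adjusted p = 0.32, limma), with 6 of 6 pools below the mean of the low pools. The exact permutation test of this comparison gave p = 0.0952.

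Over all probes 0.0221% passed an adjusted p of 0.05 in high against low drinkers, and 14.7% an unadjusted p under 0.05, 3.4% on the higher and 11.3% on the lower side. No member passed the first threshold, and 1 of 8, Nr5a1, passed the second. No member had high drinkers all above (1.65% of probes) or all below (2.97% of probes) the low drinkers. Nr5a1 passed the adjusted threshold under a pair of alternatives. Without low pool 1 the difference was -0.89 (adjusted p = 0.046, limma), and with the scan day as a block it was -0.89 (adjusted p = 0.0394). These settings raised the count over all probes from 7 to 2255 and 3088. The unadjusted call was lost with the slide as a fixed block (-0.51, unadjusted p = 0.0994, limma) or a random one (-0.55, unadjusted p = 0.0509), and by the methods' t-test (unadjusted p = 0.114). It was also lost on leaving out 6 of the 12 arrays in turn (low pools 2 and 3, early high pools 2 and 3, late high pools 2 and 3), with an unadjusted p of 0.0532 to 0.216 (limma). Without low pool 2 it was -0.23 (adjusted p = 0.734). Within slide 2, the early high pools were lower than the low pools by -0.45.

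A second Nr5a1 probe (chromosome 2, 38556959 to 38557018, mm9) was well above background on only 4 of 12 arrays and had a value on 7. Of the water pools it was well above background in 1, so that the fitted -0.34 ± 0.87 for alcohol minus water (adjusted p = 0.948, limma) sets no sign against the first probe. Its highest value, -3.88, was also that of low pool 2.

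The other ventromedial and tuberal factors were Fezf1, Nr0b1, Sox14, Nkx2-1 and Nkx2-2. Of these 5, 5 were tested and 0 passed in alcohol against water at either threshold, with a median log2 difference of 0.00 (0.0016). The mean deviation of this list from its own level was 0.08 in low pool 2, where Nr5a1 deviated by 1.15.

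Rax, the tanycyte factor, showed the widest range of the members. The water pools were at -4.02, -4.37 and -4.20. The low pools were at -4.06, -2.62 and -3.17, the early high pools at -3.39, -3.64 and -3.56, and the late high pools at -3.34, -3.22 and -3.72. All 8 alcohol pools on slides 2 and 3 were above every water pool. Low pool 1, the alcohol pool that shared slide 1 with the water pools, lay among them.

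Alcohol pools were higher than water pools by 0.78 ± 0.23 for Rax, or 1.72-fold (unadjusted p = 0.00583, adjusted p = 0.819, limma), and the exact permutation test gave p = 0.0136, with 9 of 9 alcohol pools above the water mean. With the slide as a fixed block the difference was 0.13 ± 0.33 (unadjusted p = 0.695, limma), which is the difference between low pool 1 and the water pools. With the slide as a random block it was 0.61 ± 0.27 (unadjusted p = 0.0399), and with normexp background correction 0.50. Early and late high drinkers shared no slide with water, so that under the slide block their differences pass through the low pools.

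**Figure D2:**
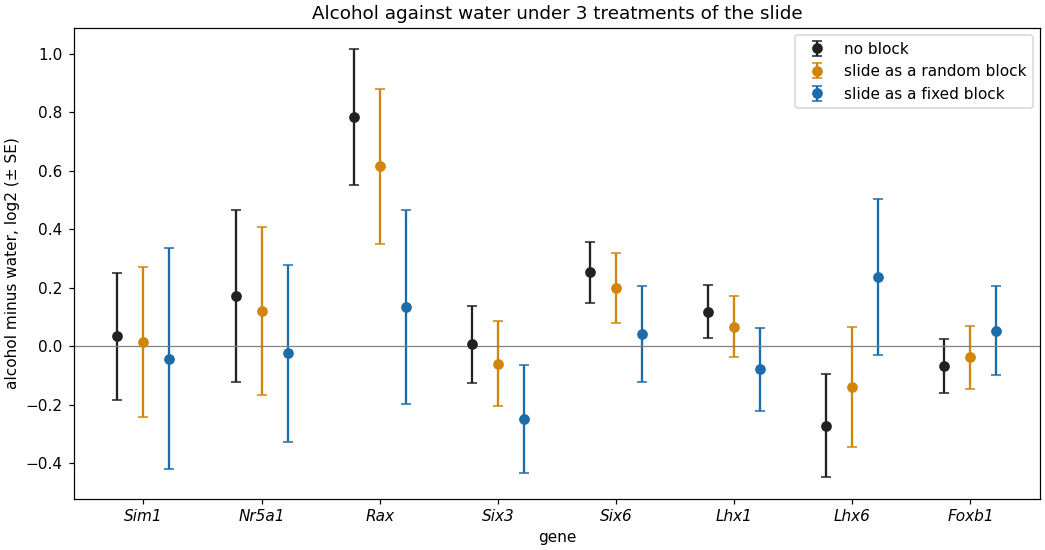
Log2 difference of alcohol minus water (vertical axis, with SE as bars) for each measured factor (horizontal axis), from limma with no block, with the slide as a random block and with the slide as a fixed block. For Rax the difference is 0.78 with no block and 0.13 with the slide as a fixed block, and for Lhx6 it is -0.27 and 0.24.

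By group, Rax was lowest in water (-4.20 ± 0.18, SD, n = 3), followed by early high (-3.53 ± 0.13), late high (-3.43 ± 0.26) and low drinkers (-3.28 ± 0.73). The 3 alcohol groups overlapped. Among the brightest probes of the members, that of Rax had the smallest p in each group of drinkers against water. Low drinkers gave 0.91 ± 0.30 (unadjusted p = 0.013, adjusted p = 0.514, limma), early high drinkers 0.67 ± 0.30 (unadjusted p = 0.0523, adjusted p = 0.89) and late high drinkers 0.77 ± 0.30 (unadjusted p = 0.0291, adjusted p = 0.257). These comparisons share the 3 water pools. Without low pool 1 the difference of low drinkers was 1.30 (adjusted p = 0.0052, limma), with both remaining low pools on slide 2, and the count over all probes rose from 69 to 2482. Without low pool 2 it was 0.58 (adjusted p = 1), and with the slide as a fixed block it was 0.13 (unadjusted p = 0.621, limma). The slide block turned the sign for early high (-0.49) and late high drinkers (-0.35). In late high drinkers the unadjusted call was also lost with normexp (0.43, unadjusted p = 0.0927, limma), with the slide as a random block (0.67, unadjusted p = 0.0725) and on leaving out water pool 2 or 3 or late high pool 1 or 2 (4 of 12 arrays, unadjusted p up to 0.088). In low drinkers it was lost by the methods' t-test (unadjusted p = 0.103).

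Against water, no member passed an adjusted p of 0.05 in low drinkers (0.218% of probes), early high drinkers (0% of probes) or late high drinkers (0% of probes). An unadjusted p under 0.05 was met by 1 of 8 members in low drinkers (9.08% of probes, 8.33% higher and 0.749% lower), by 0 of 8 in early high drinkers (4.7% of probes, 2.8% higher and 1.9% lower) and by 1 of 8 in late high drinkers (15.9% of probes, 6.97% higher and 8.94% lower). It was Rax, on the higher side, in both cases. By the methods' t-test the members there were 0 in low drinkers (3.9% of probes), Rax in early high drinkers (9.87% of probes), and Nr5a1 and Rax in late high drinkers (16.6% of probes), and none passed after adjustment. Values that all lay above water were found for no member in low drinkers (7.05% of probes), for Rax in early high drinkers (10.9% of probes) and for Rax and Six6 in late high drinkers (12.4% of probes). Values that all lay below water were found for no member in low (2.14% of probes) or early high drinkers (5.51% of probes) and for Nr5a1 in late high drinkers (13.4% of probes). The exact test of 3 against 3 pools cannot go below p = 0.1.

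A second Rax probe had no signal well above background (0 of 12 arrays) and was not tested. Of 8 further genes of tanycytes, 8 were tested and 0 passed an adjusted p of 0.05 in alcohol against water. Vcan, a matrix proteoglycan, was the 1 with an unadjusted p under 0.05 (0.25 ± 0.10, unadjusted p = 0.0239, adjusted p = 0.819, limma). Scn7a was well above background on 0 of 12 arrays. The mean deviation of the tanycyte list was -0.08 to -0.03 in water, -0.01 to 0.22 in low, -0.07 to 0.00 (0.0028) in early high and -0.03 to 0.03 in late high pools, so all low and late high pools lay above the water pools for this list, low pool 2 farthest, and the early high pools overlapped with water.

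Six3 and Six6 are related homeobox factors of the anterior hypothalamus and the eye field. Six3 was at -2.98, -2.79 and -2.62 in water, at -3.05, -2.46 and -2.69 in low, at -2.68, -2.71 and -3.01 in early high and at -2.92, -2.60 and -3.01 in late high pools. All 4 groups covered nearly the same range. The difference between alcohol and water was 0.01 ± 0.13 (adjusted p = 0.995, limma). The 4 group means lay between -2.85 and -2.73, and no neighbors in that order differed beyond the spread.

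A second Six3 probe (chr17:86021546-86021605, mm9) was well above background on 6 of 12 arrays and was not tested, since only 1 water pool had a value. Its highest values, -3.92 and -5.12, were those of low pool 2 and water pool 3.

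Six6 (chromosome 12, 74045489 to 74045548, mm9) was at -3.74, -3.85 and -4.03 in water and at -3.83, -3.37 and -3.59 in low pools. It was at -3.72, -3.43 and -3.77 in early high and at -3.72, -3.66 and -3.48 in late high pools. The late high pools were all above water, with -3.72 against -3.74 for the closest pair, and the other alcohol groups overlapped with water.

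Alcohol pools were higher for Six6 by 0.25 ± 0.10 (unadjusted p = 0.0323, adjusted p = 0.819, limma), with 9 of 9 pools above the water mean and p = 0.0364 in the exact permutation test. Quantile normalization gave 0.13 (unadjusted p = 0.246, limma), and the slide as a fixed block gave 0.04 (unadjusted p = 0.807). The unadjusted call was also lost with normexp (0.16, unadjusted p = 0.118, limma), with the slide as a random block (0.20, unadjusted p = 0.126) and without water pool 2 (unadjusted p = 0.0632) or 3 (unadjusted p = 0.17). By group the means ran from -3.87 ± 0.15 in water to -3.64 ± 0.19 in early high, -3.62 ± 0.13 in late high and -3.59 ± 0.23 in low drinkers.

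Lhx1 was at -0.20, 0.01 and -0.10 in water and at -0.18, 0.07 and -0.01 in low pools. The early high pools had 0.24, 0.08 and -0.15, and the late high pools 0.18, 0.06 and -0.11. The groups overlapped throughout. These are means of 10 spots, whose SD within an array was between 0.03 and 0.11. The SD of Lhx1 over the 12 arrays was 0.14.

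For Lhx1 the difference between alcohol and water was 0.12 ± 0.09 (adjusted p = 0.828, limma). A second probe (chromosome 11, 84331888 to 84331947, mm9) was well above background on all arrays and gave 0.13 ± 0.11 (adjusted p = 0.834). Lhx1 thus had a like difference at both of its probes, neither past the threshold.

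The list of suprachiasmatic and anterior factors held Rorb, Zfhx3, Rora, Vax1, Lhx2 and Foxd1. All 6 of these genes were tested in alcohol against water and 0 passed at either threshold, with a median log2 difference of 0.06. Among the peptides, Vip and Prok2, both messengers of the suprachiasmatic nucleus, had an unadjusted p under 0.05, at 0.25 ± 0.10 (unadjusted p = 0.0267) and -0.34 ± 0.10 (unadjusted p = 0.00632), and neither passed after adjustment (adjusted p = 0.819 for both, limma). They were the 1 peptide on the higher and the 1 on the lower side among 16.

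Lhx6 (chromosome 2, 35937499 to 35937558, mm9) was at 0.77, 0.07 and 0.67 in the water pools and at 0.74, 0.13 and 0.16 in the low pools. It was at 0.16, 0.33 and 0.05 in the early high pools and at -0.07, 0.50 and 0.08 in the late high pools. Water pools 1 and 3 and low pool 1, all on slide 1, were the 3 highest, but water pool 2 on the same slide was among the lowest.

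Alcohol pools differed from water by -0.27 ± 0.18 for Lhx6 (adjusted p = 0.819, limma), with 7 of 9 pools below the water mean and p = 0.195 in the exact permutation test. Without water pool 2 the difference was -0.49 (unadjusted p = 0.0186, adjusted p = 0.962, limma). Without low pool 1 it was -0.34 (unadjusted p = 0.0489, adjusted p = 0.552, limma). An unadjusted p under 0.05 was then met by 3.74% and 9.04% of all probes. The slide block turned the sign, to 0.24 ± 0.27. The means fell in the order water (0.50 ± 0.38), low (0.34 ± 0.34), early high (0.18 ± 0.14) and late high (0.17 ± 0.30), and no neighbors differed beyond the spread.

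Lhx8, a factor of basal forebrain neurons named here after its values were seen, was at 0.56, -0.17 and 0.46 in water, at 0.55 in low pool 1, and between -0.76 and -0.05 in the other 8 pools. Water pools 1 and 3 and low pool 1 stood above the other 9 pools for Lhx8, as they did for Lhx6. The share of all probes with those 3 pools highest was not counted. Genes listed with Lhx8 as GABA neuron factors did not all have this order. Nkx2-4 was lowest of all pools in low pool 1 (-1.14), and Dlx5 was highest in low pool 2 (-2.43). Late high pool 2, next highest for Lhx6 at 0.50, was at -0.47 for Lhx8, lower than all pools but late high pool 1. The part of basal forebrain tissue in the Lhx6 values was not tested. Of the 7 genes of cortex and hippocampus, 0 passed an adjusted p of 0.05 in alcohol against water, and those with an unadjusted p under 0.05 included Lamp5 (-0.17 ± 0.07) on the lower side and Slc17a7 on the higher side, which was well above background on 5 of 12 arrays and in no water pool, so that no difference is given. The mean deviation of the list was 0.04 to 0.25 in water, -0.08 to 0.11 in low, -0.19 to -0.01 in early high and -0.13 to 0.04 in late high pools.

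A second Lhx6 probe (chromosome 2, 35939206 to 35939263, mm9) gave another pattern. Before the filter on outlier spots and signal, it was at -7.06, -7.11 and -6.61 in water and at -4.19, -4.76 and -4.75 in the low pools. It was at -6.13, -6.31 and -6.04 in early high and at -7.38, -5.93 and -5.99 in late high pools. The 3 low pools were above all 9 others and well above background, the spot of low pool 1 being non-uniform, and no water pool was well above background. Over all probes, after that filter, the low pools lay all above water for 7.05% and the high drinkers all below the low drinkers for 2.97%. Without low pool 1, the low drinkers were at least 2.29-fold higher than water at this probe, counting each water array at its lowest signal well above background. In the fit, which left out low pool 1 and, for its low signal, 1 water pool, low drinkers against water had an unadjusted p = 0.00167 (adjusted p = 0.217, limma). High drinkers gave a fitted -1.54 ± 0.36 against low drinkers (unadjusted p = 0.00316, adjusted p = 0.169, limma). Of their 6 pools only 3 were well above background at this probe, so the size of that difference is not established. At the first probe low drinkers and water differed by -0.16 ± 0.23 (adjusted p = 0.912). In low pools 2 and 3 the second probe lay close to the lowest signal called well above background on those arrays.

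The 7 GABA neuron homeobox factors, among them Dlx1, Dlx2, Dlx5, Dlx6, Lhx8 and Nkx2-4, were all tested, and 0 of 7 passed an adjusted p of 0.05 in alcohol against water. Dlx5 was the 1 with an unadjusted p under 0.05 (0.24 ± 0.11, unadjusted p = 0.0487, adjusted p = 0.819, limma).

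Foxb1 (chromosome 9, 69605802 to 69605861, mm9), the mammillary factor, was at 1.12, 1.05 and 0.88 in water and at 1.07, 1.07 and 0.95 in low pools. It was at 1.02, 0.95 and 0.79 in early high and at 1.14, 0.71 and 0.82 in late high pools. This was the steadiest of the members, with an SD of 0.14 over the 12 arrays. All groups overlapped.

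Alcohol and water differed by -0.07 ± 0.09 for Foxb1 (adjusted p = 0.885, limma). The means ran from 1.03 ± 0.07 in low and 1.02 ± 0.12 in water to 0.92 ± 0.12 in early high and 0.89 ± 0.22 in late high drinkers. Of 11 other mammillary and lateral factors, 10 were tested and 0 passed after adjustment. Foxa1, a factor of posterior hypothalamic and midbrain neurons, had an unadjusted p under 0.05 (0.75 ± 0.24, unadjusted p = 0.0103, adjusted p = 0.819, limma). Foxa1 was at -4.36 in low pool 1, within the water range of -4.63 to -4.26, and between -4.08 and -2.88 in the 8 alcohol pools on slides 2 and 3, the same arrangement of pools as for Rax.

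**Figure D3:**
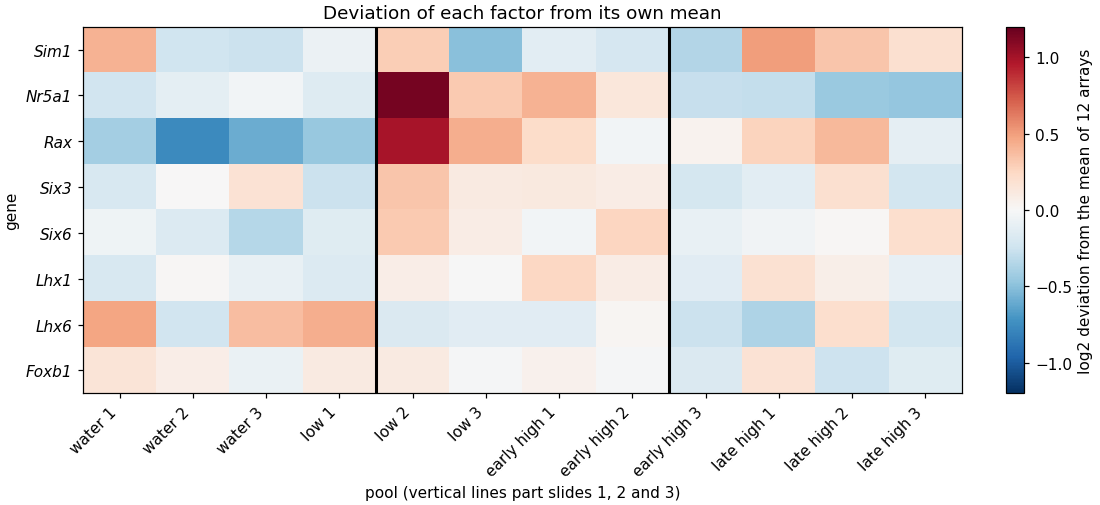
Log2 deviation of each factor (rows) from its own mean over the 12 arrays, by pool (columns), with vertical lines between the slides; red is above and blue below the mean. Low pool 2 is the highest pool for Nr5a1 (1.15) and Rax (0.99), and the 4 pools of slide 1 are the 4 lowest for Rax.

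Seen by pool, low pool 2 was the highest of all 12 for Nr5a1, Rax, Six3 and Six6, at 1.15, 0.99, 0.33 and 0.32 above the mean of these genes. It was not the highest for Sim1 (0.29), Lhx1 (0.08), Lhx6 (-0.17) or Foxb1 (0.11). This pool lay on slide 2 and had one of the raised background limits given above, whose part was not tested. In the same pool the mean deviation was 0.22 for the tanycyte list, 0.35 for the mammillary and lateral list and 0.28 for the thalamic list. Marker lists in general were raised there, since 13 of 15 lists lay above their own mean in low pool 2 and 6 were at their highest of all pools. The lowest values of the 8 members fell in 8 different pools.

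Slide and pool were set beside each other for each member. The share of the variance over 12 arrays that lay between slides was 0.719 for Nr5a1 and 0.712 for Rax, 0.573 for Six6 and between 0.159 and 0.439 for the other 5. Its median was 0.317 over all 29521 probes measured on 12 arrays. The SD over arrays was 0.50 for Rax, 0.46 for Nr5a1, 0.33 for Sim1 and 0.29 for Lhx6, and 0.20 or less for the other 4 (median of all probes 0.14). Nr5a1 and Rax thus had both the widest spread and the largest share of it between slides.

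**Figure D4:**
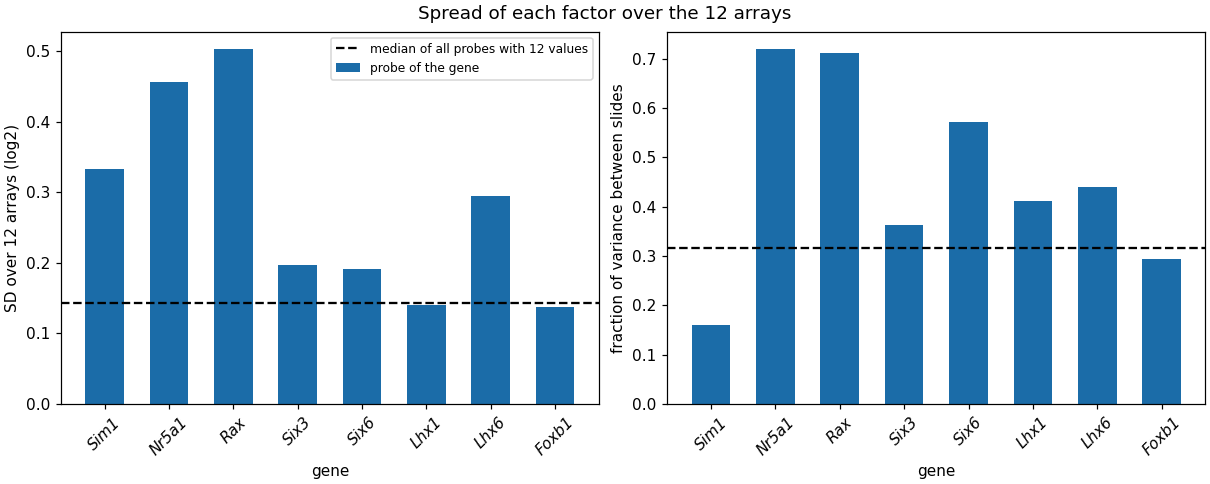
SD over the 12 arrays in log2 units (left) and fraction of the variance that lies between the 3 slides (right) for each measured factor, with a dashed line at the median of all probes with 12 values. Rax (0.50) and Nr5a1 (0.46) have the widest spread, and the fraction between slides is 0.712 and 0.719 for them and 0.159 for Sim1.

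Pairs of members were compared over the 12 arrays, 28 pairs for the 8 measured members, with permutation tests and Benjamini-Hochberg adjustment. None of the 28 passed an adjusted p of 0.05. The highest Pearson correlation was that of Rax and Six6 (r = 0.695, permutation p = 0.0122, adjusted p = 0.171; Spearman rho = 0.72, permutation p = 0.0103, adjusted p = 0.287). It was 0.504 without the 2 arrays farthest from the median of Rax, and 0.18 once each slide was centered. Nr5a1 and Six3 came next (r = 0.675, permutation p = 0.0099, adjusted p = 0.171; rho = 0.545, permutation p = 0.0718, adjusted p = 0.513), with 0.421 without the 2 farthest arrays and 0.406 with slides centered. Without late high pool 2, r for this pair was 0.856 (permutation p = 0.00023, adjusted p = 0.00644). Slides held 4 arrays each, too few for a correlation within a slide.

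Nr5a1 and Rax, the widest in spread, gave r = 0.567 (permutation p = 0.0537, adjusted p = 0.388; rho = 0.21, permutation p = 0.513, adjusted p = 0.875). The relation rested on the 2 arrays farthest from the median of Nr5a1, low pool 2 and early high pool 1, since r was 0.0066 without them. It was 0.738 with slides centered.

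The genes most like each member were sought among 19494 probes of named genes that were well above background on all 12 arrays, by Pearson correlation over the arrays, which share slides. The highest of so many correlations over 12 arrays are large through the selection itself, and were not tested. With each slide centered, they ran from 0.777 (Six6 with Hipk1) to 0.961 (Lhx1 with Itm2c). For Sim1 they were Nubpl (0.905), Tmem208 (0.901) and Atxn2 (0.892), and for Foxb1 Insl5 (0.868), Tmem17 (0.858) and Rdh14 (0.845). For Nr5a1 they were Mybpc3 (0.978), Kcnh4 (0.974) and Cyp2d26 (0.974), and for Rax Pold3 (0.951), Fkbp11 (0.951) and Prickle2 (0.948). Six3 was most like Dnajb8 (0.945), Mllt10 (0.921) and 0610039H22Rik (0.92), Six6 most like Nap1l4 (0.905), Hipk1 (0.905) and Ube2r2 (0.904), and the genes most like Lhx1 included Itm2c (0.908) and Setd5 (0.906).

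Lhx6 was most like Tbr1 (0.937), a factor of glutamate neurons of the cortex, followed by Aldh3b1 (0.906) and Camk2d (0.887). Tbr1 was at -3.001, -3.54 and -3.03 in the water pools, at -3.16, -3.75 and -3.67 in the low pools, at -3.49, -3.37 and -3.76 in the early high pools and at -3.69, -3.19 and -3.55 in the late high pools. Water pools 1 and 3, low pool 1 and late high pool 2 were the 4 highest for Tbr1, and were also the 4 highest for Lhx6. Tbr1 was chosen by its likeness to Lhx6 on these arrays, so the shared order comes with that choice. Genes of the cortex and hippocampus list did not all follow, as Neurod2 had its lowest values in water pool 1 (-2.74) and low pool 1 (-2.73). No other member of the set was among the 3 genes most like a given member.

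Markers of neighboring tissue differed between pools as well. The mean deviation of the 9 thalamic genes was -0.18 to -0.01 in water, -0.42 to 0.41 in low, -0.54 to 0.33 in early high and -0.11 to 0.70 in late high pools, and 0 of 9 had an unadjusted p under 0.05 in alcohol against water. For the 4 midbrain genes measured on every array it was -0.82 to -0.25 in water, 0.19 to 0.38 in low, -0.08 to 0.52 in early high and -0.96 to 0.35 in late high pools. Gata3 was the 1 of 5 midbrain genes with an unadjusted p under 0.05 (1.04 ± 0.33, unadjusted p = 0.00833, adjusted p = 0.819, limma), and En1 was well above background on 0 of 12 arrays. The striatal list lay at -0.01 to 0.09 in water, at 0.00 (-0.0002) to 0.24 in low, at -0.20 to 0.24 in early high and at -0.20 to -0.17 in late high pools, with 0 of 6 at an unadjusted p under 0.05. The parts of these tissues in the values of the members were not tested.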

How the data were processed

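The authors deposited the scanner output of 12 Agilent 1-color arrays, processed with Feature Extraction 10.5.1.1 by the file headers (the paper names an earlier version). The deposited intensity is background-subtracted, linear and not scaled between arrays. Here log2 intensities were scaled by subtracting, on each array, the 75th percentile over its 43379 non-control spots. Non-uniform outliers and spots with signal over error below 2 counted as missing, repeated spots were averaged per probe, and tests needed values on over 50% of the arrays in each group. Positions are those of mm9 in the files.

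limma 3.58.1 in R 4.3.3 (lmFit, eBayes) was run over all probes with Benjamini-Hochberg adjustment, and checked on simulated data. Exact permutation tests ran over pools, and correlations used 100000 resamples (Python 3.11.15, scipy 1.17.1, figures with matplotlib 3.10.9). Groups came from the labels. Members and lists were chosen with earlier results of these data known. All members were named. Genes of other lists were named at an unadjusted p under 0.05, up to 2 in each direction, and some genes are not reported here. Of 14 member probes, 8 had an accession in the RefSeq gene table, all 8 with the same symbol. Alternatives were other scalings, background corrections and filters, the deposited value table (also intensity), blocks for slide, scan day and replicate, the methods' t-test, other probes and leaving out each array. Precision is limited by the number of arrays.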

Additional observations from a re-analysis of the deposited data

Results flagged for a closer look

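In the 9 alcohol arrays, 23 measures (the 8 measured members and 15 marker lists) were searched for a highest or lowest pool that stood far from the rest, by its gap to the nearest pool as a share of the whole range. Chance gives such a pool in about 1 in 20 groups. No member had one. The lists below did. The tanycyte list was highest in low pool 2, with a gap of 0.652 of the range. That pool was the highest of all 12 for 6 of the 15 lists. The midbrain list was lowest in late high pool 1, with a gap of 0.598. In that pool Slc6a3, the dopamine transporter, was at -0.82 against 2.21 to 3.40 in the other 8 alcohol pools. Pitx3 (-3.18 against -2.44 to -1.85) and En2 (-2.33 against -1.92 to -1.56) were also lowest there. Gata3 was at -3.79, within its range in the others. Slc6a3, Pitx3 and En2 were named after their values were seen. The anterior pituitary list was lowest in early high pool 2, with a gap of 0.555.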

How the results depend on the processing

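No member was called in any of the 6 comparisons, and the count of 0 held under every alternative apart from 3 settings. It became 1 (Rax) in low drinkers against water without low pool 1, and 1 (Nr5a1) in high against low drinkers without low pool 1 and with the scan day as a block, where counts over all probes also rose (69 to 2482, and 7 to 2255 and 3088). Leaving out each array gave counts of 0 to 1 in those comparisons and among the correlations (1 pair without late high pool 2), and 0 in the other 4 comparisons. The slide and the scan day as fixed blocks turned the sign of alcohol minus water for Sim1 (-0.043), Nr5a1 (-0.025), Six3 (-0.25), Lhx1 (-0.080), Lhx6 (0.24) and Foxb1 (0.052), and the scan day and slide that of Rax in early high (-0.50 and -0.49) and late high drinkers (-0.40 and -0.35). For alcohol minus water both fixed blocks leave only low pool 1 against the 3 water pools, so they give 1 comparison and not 2. Quantile normalization turned Sim1 (-0.16) and Six3 (-0.041), and the random slide block turned Six3 (-0.060). Other probes gave -0.34 for Nr5a1 and 0.95 for Lhx6, against 0.17 and -0.27, but with 1 and 0 water pools well above background at these probes neither sign is established. Leaving out 1 array, the difference ran from -0.081 to 0.25 for Sim1 and from -0.087 to 0.10 for Six3, and kept its sign for Rax (0.68 to 0.87), Six6 (0.18 to 0.32), Nr5a1 (0.034 to 0.23), Lhx1 (0.066 to 0.17), Lhx6 (-0.49 to -0.14, the first without water pool 2, unadjusted p = 0.0186, limma) and Foxb1 (-0.14 to -0.018). The causes were not tested. No scaling between arrays moved the median of all probes from 0.00 (0.0048) to 0.13 in late high against water and from -0.03 to 0.13 in late against early high drinkers, with Sim1 at 0.72. The replicate numbers did not pair the pools, since correlations of same-numbered deviations ran from -0.09 to 0.18. With the replicate number as a block the count stayed 0 in every comparison and Rax was at 0.78 (unadjusted p = 0.00958, limma). Each group had 3 pools, and only 1 alcohol pool shared a slide with water. Dim probes (Sim1, Rax, Nr5a1, Six6) lay nearest to the background.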
